A study of Homo sapiens with 6 samples.

Results

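The genes described here are 9 transcription factors and markers of the trophectoderm, the outer epithelium of the blastocyst, chosen by symbol from the 53712 genes of a count table: CDX2, GATA2, GATA3, TFAP2A, TFAP2C, VGLL1, HAND1, ABCG2 and ENPEP. All 9 were in the table, and 8 had enough reads to be tested. They were measured by poly(A) RNA-seq in H9 cells, an established human embryonic stem cell line, in 2 groups of 3 libraries each, numbered 1 to 3 in both. One group was transfected with ASO-L1, an antisense oligonucleotide against the LINE-1 (L1) retrotransposon, and its control with SO-L1, the sense oligonucleotide.

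Both groups were cultured in PXGL, a medium that holds cells in a naive, pre-implantation-like state, and both received 25 nM oligonucleotide by lipofection. Both also received trans-ISRIB at 0.7 uM, an inhibitor of the integrated stress response, together with emricasan, a caspase inhibitor, at 5 uM and 10 uM of the ROCK inhibitor Y-27632. All 3 were removed after 24 hours. RNA was taken after 48 hours from unsorted cells of this 1 line, so transfected and untransfected cells were measured together. In such bulk samples fewer cells of a type and less RNA per cell cannot be told apart. The labels do not say that replicates were separate cultures, so p-values measure the spread between these libraries, which may be technical.

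The trophectoderm forms when outer cells of the morula polarise, which lets the coactivator YAP enter the nucleus and act with TEAD factors such as TEAD4. In human embryos GATA3 is among the first factors of these cells and CDX2 follows, and the layer later gives rise to the trophoblast of the placenta. GATA2, GATA3, TFAP2A and TFAP2C are together the core factors of human trophoblast. Naive human embryonic stem cells are known to convert readily to trophectoderm, and they express TFAP2C themselves.

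Libraries held 23330875 to 31164287 counts. POU5F1, which marks pluripotent cells, lay between 1050 and 1210 CPM in ASO-L1 and between 1200 and 1330 CPM in SO-L1 libraries. CPM are counts scaled to library size with TMM, a normalisation across libraries. KLF17, a defining gene of the naive state named here after its values were seen, was low in all libraries, at 0.263 to 0.552 CPM in ASO-L1 and 0.544 to 0.936 CPM in SO-L1 libraries. Of 16873 genes tested by edgeR's quasi-likelihood test, 18.0% were called higher and 15.7% lower in ASO-L1 at an adjusted p under 0.05.

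Promoter sequences of CDX2, TFAP2A and GATA3 are shown because in these 3 genes every ASO-L1 library lay above every SO-L1 library. Each is the RefSeq window of 300 bases, 250 before and 50 after the start lying farthest upstream in the table, on GRCh38.p14 and 5′ to 3′ on the gene's strand. Capitals mark letters searched for on either strand. For TEAD factors, the partners of YAP and VGLL1, these letters were GGAATG. For GATA factors, here GATA2 and GATA3, the letters AGATAA were searched. The AP-2 factors TFAP2A and TFAP2C are known to bind GCCNNNGGC, and the TATA box was searched as TATAAA.
CDX2, chr13:27969266-27969565, minus strand: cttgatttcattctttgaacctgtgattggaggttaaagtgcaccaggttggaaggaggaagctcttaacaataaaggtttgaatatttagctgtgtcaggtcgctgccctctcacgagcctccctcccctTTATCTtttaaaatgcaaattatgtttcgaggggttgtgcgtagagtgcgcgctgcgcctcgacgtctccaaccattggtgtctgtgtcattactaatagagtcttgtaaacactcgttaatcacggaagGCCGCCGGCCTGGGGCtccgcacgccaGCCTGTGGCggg
TFAP2A, chr6:10419610-10419909, minus strand: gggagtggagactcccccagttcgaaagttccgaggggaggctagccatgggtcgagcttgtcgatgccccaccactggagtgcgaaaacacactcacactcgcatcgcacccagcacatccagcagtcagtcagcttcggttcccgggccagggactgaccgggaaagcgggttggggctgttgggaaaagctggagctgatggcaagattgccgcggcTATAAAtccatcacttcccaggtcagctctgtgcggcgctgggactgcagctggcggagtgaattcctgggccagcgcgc
GATA3, chr10:8045083-8045382, plus strand: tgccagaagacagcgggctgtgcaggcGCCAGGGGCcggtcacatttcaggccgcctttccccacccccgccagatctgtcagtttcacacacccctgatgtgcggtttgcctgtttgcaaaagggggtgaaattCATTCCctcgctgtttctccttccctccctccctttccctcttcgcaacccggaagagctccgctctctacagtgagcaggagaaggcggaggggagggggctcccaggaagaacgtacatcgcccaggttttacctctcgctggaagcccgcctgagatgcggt

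The CDX2 window held 1 GATA match, starting 119 bases before the start, and 3 AP-2 matches after the start, of which the first 2 overlap. The TFAP2A window held 1 TATA match, beginning 30 bases before the start, and none of the other letters. The GATA3 window held 1 AP-2 and 1 TEAD match. Over the 19 windows of the 8 genes with an entry, some of which overlap, AP-2 letters were found in 8, TEAD letters in 4, TATA letters in 3 and GATA letters in 1. Over all 35116 windows of that length the shares were 23.2% for AP-2, 14% for TEAD, 11.5% for TATA and 10.3% for GATA letters. A match describes the sequence only, and which of the starts these cells used is not shown by gene counts.

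CDX2 and TFAP2A rose after ASO-L1, both from low levels, and no gene of the 9 was called lower. GATA3 was higher in each ASO-L1 library than in any SO-L1 library without passing the test. GATA2, HAND1, ABCG2, ENPEP and TFAP2C had overlapping groups, and VGLL1 was near its detection limit in both groups. The 2 calls among 8 tested genes stand beside 33.7% of all tested genes called in either direction, 18.0% called higher and 11.1% called higher among the 5248 tested genes with an average log2 CPM under 2. At an unadjusted p under 0.05 there were 3 higher and 0 lower, beside 7615 of all 16873 tested genes in either direction. DESeq2 called 3 higher and 0 lower, beside 2933 higher and 2498 lower over all tested genes. Limma-voom called 2 higher and 0 lower, beside 3050 higher and 2628 lower over all tested genes.

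**Figure D1:**
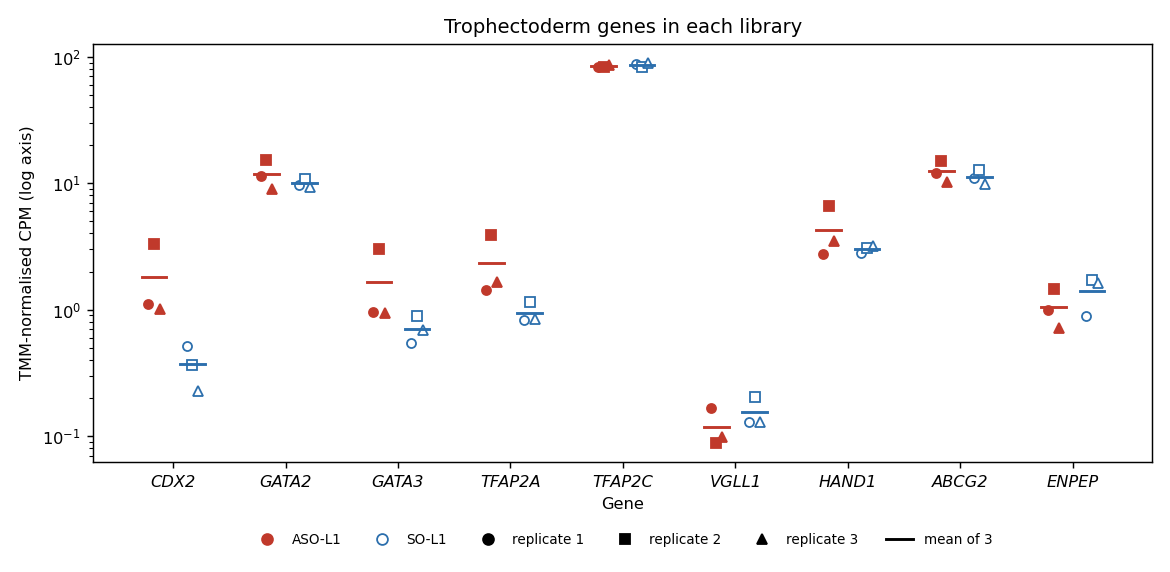
TMM-normalised CPM on a log axis for each gene, with ASO-L1 libraries filled and SO-L1 libraries open, symbols for the replicate number and a line at the mean of 3. CDX2, TFAP2A and GATA3 have no overlap between groups, TFAP2C lies near 84.3 CPM in ASO-L1 and 86.7 CPM in SO-L1, and ASO-L1 replicate 2 is the highest ASO-L1 library for 7 of the 8 tested genes.

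CDX2 is a homeobox factor that maintains the trophectoderm programme, best studied in mouse, where embryos without it fail to hold the lineage. It measured 1.11, 3.29 and 1.01 CPM in ASO-L1 libraries 1 to 3, against 0.512, 0.366 and 0.228 CPM in SO-L1 libraries 1 to 3. All ASO-L1 libraries were above all SO-L1 libraries, and ASO-L1 replicate 2 was well above the other ASO-L1 libraries. Behind these values are 27, 75 and 31 reads in ASO-L1 and 16, 9 and 7 reads in SO-L1 libraries. The log2 fold change was 2.24 ± 0.54 (SE, n = 3 each; 95% interval 1.04 to 3.48; adjusted p = 0.0131 by edgeR). A fold at or above this was fitted for 0.711% of tested genes. CDX2 passed the filter on low counts through its 3 ASO-L1 libraries, since only 2 SO-L1 libraries reached the minimum of 0.364 CPM. With no filter, over 33437 genes, edgeR called it as well (2.23 ± 0.35, adjusted p = 4.02e-09). There the fold was nearly the same and the SE smaller on the same reads, so that fit is not separate support.

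TFAP2A encodes AP-2 alpha, an AP-2 factor of trophoblast, surface ectoderm and neural crest. It measured 1.44, 3.86 and 1.66 CPM in ASO-L1 libraries against 0.832, 1.14 and 0.848 CPM in SO-L1 libraries, again with no overlap and with ASO-L1 replicate 2 highest. The log2 fold change was 1.29 ± 0.38 (SE; interval 0.44 to 2.15; adjusted p = 0.0273 by edgeR). Its paralog TFAP2C, which encodes AP-2 gamma and serves both trophoblast and naive pluripotency, measured 83.0, 83.3 and 86.7 CPM in ASO-L1 and 87.4, 83.4 and 89.3 CPM in SO-L1 libraries. The groups overlapped, and the spread was small, with a coefficient of variation of 2.49% in ASO-L1 and 3.44% in SO-L1. The interval of the TFAP2C log2 fold change ran from -0.18 to 0.10 (-0.04 ± 0.06, adjusted p = 0.653 by edgeR).

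GATA3 is an early trophectoderm factor under YAP and TEAD4 in human embryos. It measured 0.949, 3.03 and 0.941 CPM in ASO-L1 libraries, against 0.544, 0.895 and 0.685 CPM in SO-L1 libraries. The groups did not overlap, but ASO-L1 replicates 1 and 3 lay just above the highest SO-L1 library. Its log2 fold change was 1.19 ± 0.49 (SE; interval 0.10 to 2.29), with an adjusted p of 0.0851 by edgeR and of 0.00742 with the replicate number as a block (1.08 ± 0.30). DESeq2 (0.0458) and the fit with no filter (0.00145) called it too, the latter again at a nearly unchanged fold with a smaller SE (1.18 ± 0.31). No overlap with every ASO-L1 library higher was seen for 3 of the 8 tested genes of the group, beside 25.8% of all tested genes.

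GATA2, which acts beside GATA3 in trophoblast and is also a factor of blood stem cells, measured 11.3, 15.2 and 9.02 CPM in ASO-L1 libraries against 9.76, 10.8 and 9.36 CPM in SO-L1 libraries. ASO-L1 replicate 3 was below every SO-L1 library and replicate 2 above them all. The log2 fold change was 0.24 ± 0.17 (SE; interval -0.14 to 0.62; adjusted p = 0.301 by edgeR).

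HAND1, a basic helix-loop-helix factor of trophoblast giant cells in mouse and of amnion and extraembryonic mesoderm, measured 2.77, 6.58 and 3.47 CPM in ASO-L1 libraries against 2.82, 3.09 and 3.16 CPM in SO-L1 libraries. Only ASO-L1 replicate 2 was well outside the control range, and the log2 fold change was 0.49 ± 0.29 (SE; interval -0.15 to 1.13; adjusted p = 0.213 by edgeR). Without that library it was 0.05 ± 0.19.

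VGLL1, a cofactor that binds TEAD factors in trophoblast, had 4, 2 and 3 reads in ASO-L1 and 4, 5 and 4 reads in SO-L1 libraries, too few for the test. The groups overlapped, and the ratio of its summed normalised reads was 0.769, with an exact 95% interval of 0.29 to 1.94 that covers counting error only.

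The other genes are surface proteins used as trophectoderm markers. ABCG2, a drug efflux transporter, measured 12.1, 14.9 and 10.3 CPM in ASO-L1 libraries against 10.9, 12.6 and 9.82 CPM in SO-L1 libraries. ENPEP, aminopeptidase A, measured 0.991, 1.45 and 0.714 CPM in ASO-L1 libraries against 0.896, 1.71 and 1.63 CPM in SO-L1 libraries. Both overlapped between groups. Their log2 fold changes were 0.16 ± 0.15 for ABCG2 (SE; interval -0.17 to 0.49; adjusted p = 0.43) and -0.44 ± 0.34 for ENPEP (interval -1.19 to 0.31; adjusted p = 0.334), both by edgeR.

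**Figure D2:**
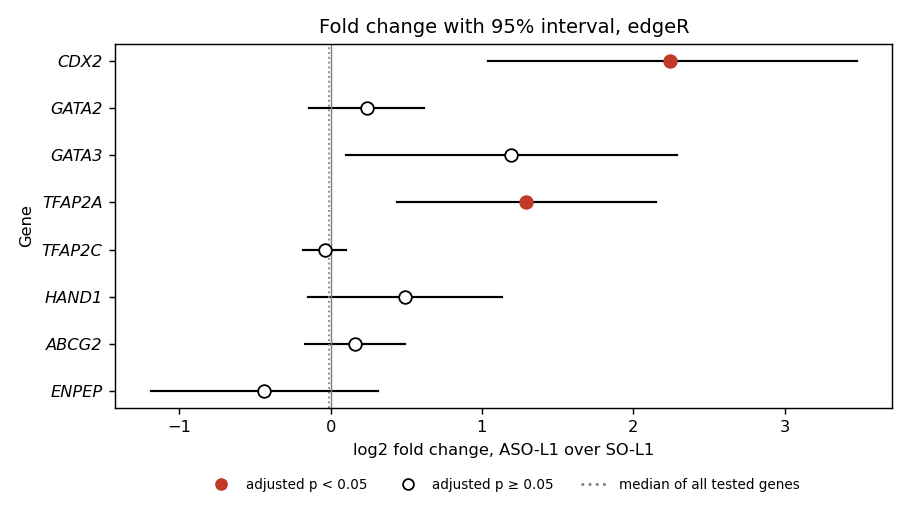
Log2 fold change, ASO-L1 over SO-L1, of the 8 tested genes with its 95% interval; filled points have an adjusted p under 0.05 by edgeR, and the dotted line is the median of all tested genes (-0.012). The intervals of CDX2, TFAP2A and GATA3 lie above 0, those of GATA2, TFAP2C, HAND1, ABCG2 and ENPEP include 0, and the interval of TFAP2C is the narrowest.

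In the authors' deposited table CDX2 had a log2 fold change of 1.97 with an adjusted p of 0.021, and TFAP2A 1.13 with an adjusted p of 0.0593. GATA3 stood there at 0.94 (adjusted p = 0.177), and the adjusted p-values of the other 6 genes in the authors' deposited table lay between 0.352 (ENPEP) and 0.751 (VGLL1). In the authors' log2 values after batch correction, CDX2 was 0.23, 0.99 and 0.68 in ASO-L1 libraries against -0.72, -1.94 and -1.40 in SO-L1 libraries. On that scale too the groups of CDX2, TFAP2A and GATA3 did not overlap, and there ABCG2 did not overlap either (3.61, 3.66 and 3.57 in ASO-L1 and 3.5, 3.42 and 3.54 in SO-L1). Without batch correction the log2 CPM of ABCG2 differed by 0.15, 0.24 and 0.07 between libraries numbered 1, 2 and 3 in both groups. What the batch was is not stated. Such a correction can narrow the spread within a group, so the lack of overlap there is not separate support.

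To set levels side by side, CPM were divided by exon length in GENCODE release 29, which is not stated to be the annotation behind the counts. On this scale (RPKM, the CPM per kilobase of exon) TFAP2C was highest, at 28.1 ± 0.684 in ASO-L1 and 28.9 ± 1.0 in SO-L1 (SD, n = 3 each). GATA2 (2.65 ± 0.701 and 2.24 ± 0.167), ABCG2 (2.46 ± 0.46 and 2.20 ± 0.278) and HAND1 (2.46 ± 1.17 and 1.74 ± 0.103) followed in ASO-L1 and SO-L1, and their libraries overlapped in ASO-L1. GATA3 (0.477 ± 0.35 and 0.206 ± 0.0514), CDX2 (0.437 ± 0.313 and 0.0895 ± 0.0345) and TFAP2A (0.28 ± 0.162 and 0.114 ± 0.021) were lower. ENPEP and VGLL1 were at 0.135 and 0.0759 RPKM in ASO-L1 and at 0.181 and 0.0999 RPKM in SO-L1. Neighbours in this order overlapped in ASO-L1 from GATA3 to VGLL1, and CDX2 had the lowest mean of the 9 in SO-L1, overlapping TFAP2A, VGLL1 and ENPEP there. CDX2 and TFAP2A stayed far below TFAP2C in ASO-L1 libraries as well.

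Replicate 2 of ASO-L1 was the highest ASO-L1 library for 7 of the 8 tested genes, TFAP2C being the exception, and this held for 41.7% of all tested genes. SO-L1 replicate 2 was the highest SO-L1 library for 5 of the 8, beside 41.0% of all tested genes. Over the 6 libraries the log2 CPM of TFAP2A correlated with GATA3 at r = 0.97, with CDX2 at 0.94 and with HAND1 at 0.89, and with TFAP2C at -0.60. For deviations from the group means the values were 0.98, 0.83, 0.95 and -0.40. These are descriptions over 6 libraries of 2 groups, in which ASO-L1 replicate 2 has a large share.

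Without ASO-L1 replicate 2 the log2 fold change was 1.5 ± 0.39 for CDX2 (adjusted p = 0.0106), 0.74 ± 0.27 for TFAP2A (0.0567) and 0.43 ± 0.33 for GATA3 (0.362), by edgeR. CDX2 was also called without replicate 2 of both groups (1.5 ± 0.42, adjusted p = 0.00342), as was TFAP2A (0.89 ± 0.30, 0.0151). For CDX2 the call ended when SO-L1 replicate 3 was left out (0.057) or replicate 1 was left out of both groups (0.0502). For TFAP2A it ended when SO-L1 replicate 1 (0.103) or 3 (0.0947) was left out, or either number in both groups (0.081 and 0.0587). GATA3 was called without ASO-L1 replicate 1 (0.0468) or 3 (0.0339).

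**Figure D3:**
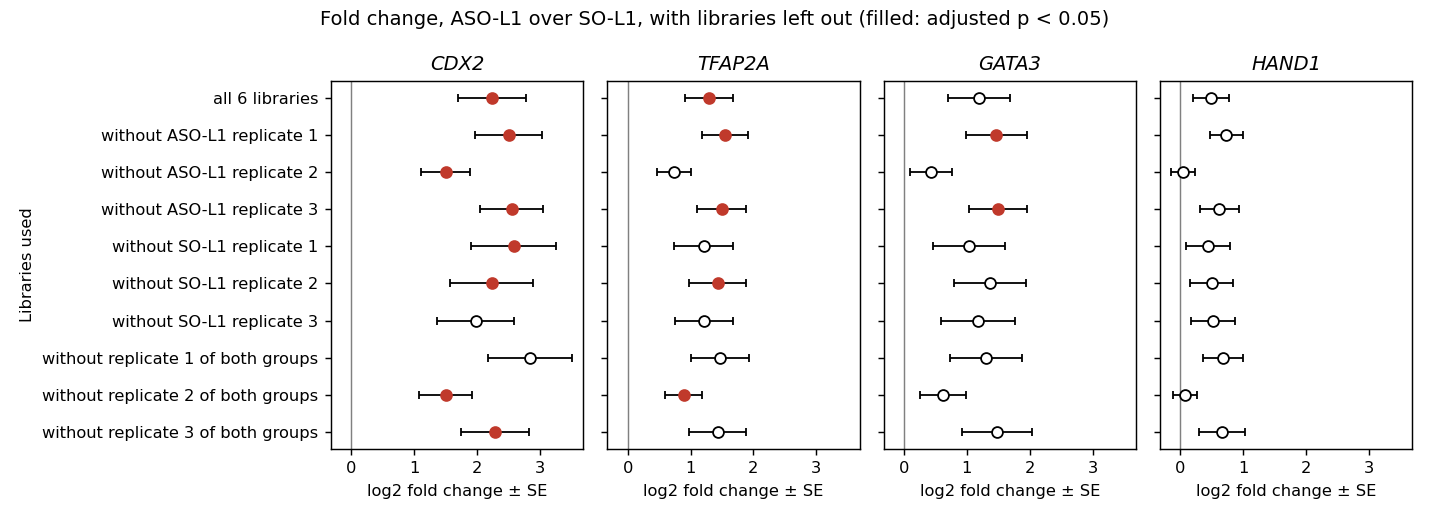
Log2 fold change ± SE, ASO-L1 over SO-L1, of CDX2, TFAP2A, GATA3 and HAND1 with all 6 libraries and with libraries left out; filled points have an adjusted p under 0.05 by edgeR. All values lie above 0, and all 4 genes have their lowest value without ASO-L1 replicate 2, which for CDX2 is 1.5 and rounds to the same without replicate 2 of both groups.

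The tested genes whose log2 CPM followed CDX2 most closely over the 6 libraries were ZNF622 (r = 0.999), DPP9, DNTTIP2, CDKN2A and MCUR1 (0.998 each). Such closeness was common, since 2232 genes correlated with CDX2 above 0.9. The changes behind it differ in size: CDKN2A, a cell cycle inhibitor gene, had a log2 fold change of 1.31 ± 0.39 and DPP9, a peptidase, of 0.11 ± 0.06, which did not pass (adjusted p = 0.212 by edgeR). The call of CDKN2A ended in 7 of the 9 fits with libraries left out (adjusted p up to 0.101). In SO-L1 replicate 3 CDKN2A measured 0.326 CPM, under the filter's minimum of 0.364 CPM.

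Other trophectoderm and trophoblast markers were higher more often than lower. Of 30 such genes 25 were tested, 11 rose and 1 fell. The median log2 fold change was 0.33, beside -0.012 over all tested genes. Over all tested genes 18.0% were called higher and 15.7% lower, shares that also stand beside each list below. At an unadjusted p under 0.05 the list had 12 higher and 4 lower. Among the 13 not called, named after their values were seen, were KRT7 (0.11, adjusted p = 0.483 by edgeR) and KRT19 (-0.04, 0.676). PLAC8 (-0.80, 0.0931), STS (-0.40, 0.0794) and LRP2 (-0.45, 0.0621) were others. KRT23, MUC15, TRIML1, ELF5 and TP63 had too few reads for the test. TEAD4, the partner of YAP at trophectoderm genes, measured 83.8, 87.8 and 77.3 CPM in ASO-L1 against 50, 46.2 and 51.9 CPM in SO-L1 libraries (0.75 ± 0.08). LCP1, an actin bundling protein gene, averaged 108 ± 38.3 CPM in ASO-L1 and 27.6 ± 4.18 CPM in SO-L1 (1.97 ± 0.26). ARID5B, a chromatin-associated factor gene, averaged 9.66 ± 5.14 CPM in ASO-L1 and 1.05 ± 0.43 CPM in SO-L1 (3.21 ± 0.46). PRSS8, a membrane serine protease gene, fell to 27.4 ± 3.04 CPM in ASO-L1, against 43.5 ± 1.07 CPM in SO-L1 (-0.66 ± 0.09). The adjusted p-values of these 4 genes lay between 0.00104 and 0.00359 by edgeR. Without replicate 1 of both groups 5 of the list were called higher and 1 lower, without replicate 3 of both 4 and 1, and without SO-L1 replicate 3 6 and 2. Over all tested genes these fits called 1183, 2820 and 2975, against 5684 with all libraries. Those totals also stand beside the same fits in the lists below. With the replicate block 12 were called higher and 4 lower.

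Genes of differentiated trophoblast were mostly too low to test, with 14 of 33 tested, 3 higher and 1 lower and a median of 0.06. The placental hormone and fusion genes CGA, CGB, ERVW-1 and ERVFRD-1 were among the 19 that were not tested. HLA-G, an antigen of invasive trophoblast, averaged 5.61 ± 1.75 CPM in ASO-L1 and 1.71 ± 0.26 CPM in SO-L1 (1.71 ± 0.24). DLX3, a placental homeobox gene, averaged 10.4 ± 6.12 CPM in ASO-L1 and 1.39 ± 0.907 CPM in SO-L1 (2.94 ± 0.59). The integrin gene ITGA5 changed by 1.63 ± 0.22 and the syndecan gene SDC1 by -0.27 ± 0.07 on the log2 scale. The edgeR call of DLX3 ended with no filter (adjusted p = 0.0746) and when replicate 3 was left out of SO-L1 (0.0518) or of both groups (0.0977). That of SDC1 ended when SO-L1 replicate 1 (0.0513) or 3 (0.0555) was left out, or either number in both groups (0.117 and 0.119). The replicate block called 5 of the list higher and 1 lower. Without replicate 2 of both groups 5 were called higher and 2 lower, and without replicate 3 of both 2 and 0.

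In the Hippo pathway all 18 genes were tested, 5 rose and 5 fell, with a median of 0.03. Beside TEAD4, the YAP paralog gene WWTR1 fell to 28.6 ± 3.99 CPM in ASO-L1, against 46.8 ± 2.10 CPM in SO-L1 (-0.70 ± 0.10). AMOT (-0.62 ± 0.12), which holds YAP in the cytoplasm, and MOB1B (-0.47 ± 0.08), an activator of the LATS kinases, fell too, all with adjusted p-values up to 0.00426 by edgeR. Without replicate 1 of both groups 1 was called higher and 3 lower.

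Paralogs of the 9 genes had 2 higher and 1 lower of 14 tested (median -0.02), beside 18.0% higher and 15.7% lower of all tested genes. GATA6 is also counted on the mesoderm and primitive endoderm lists. GATA6 averaged 3.91 ± 2.04 CPM in ASO-L1 and 1.57 ± 0.305 CPM in SO-L1 (1.29 ± 0.35), VGLL3 changed by 0.61 ± 0.15 and CDX4 by -0.48 ± 0.15, while LNPEP (-0.36 ± 0.13, adjusted p = 0.061) did not pass edgeR on group alone and passed with the replicate block (0.0155). CDX4 was lost in 7 of the 9 fits with libraries left out (adjusted p = 0.0658 to 0.126), GATA6 without SO-L1 replicate 2 (0.0548) or 3 (0.0765), and VGLL3 without SO-L1 replicate 1 (0.0719) or 3 (0.0617). Without replicate 1 of both groups both GATA6 (0.0555) and VGLL3 (0.111) were lost. The list then had 1 higher and 0 lower, likewise without SO-L1 replicate 3, and with no filter it had 4 higher and 2 lower.

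Of 9 tested cofactors of GATA and AP-2 factors 3 rose and 1 fell (median 0.29). LMO2, a bridging factor of GATA complexes, averaged 4.11 ± 1.15 CPM in ASO-L1 and 1.48 ± 0.431 CPM in SO-L1 (1.48 ± 0.27), and its partner LDB1 changed by 0.24 ± 0.07. The AP-2 corepressor genes went opposite ways, KCTD15 by 0.29 ± 0.08 and KCTD1 by -0.43 ± 0.11. When replicate 1 was left out of both groups none of the list was called by edgeR. At an unadjusted p under 0.05 that fit had 4 higher and 1 lower of the list. Over all tested genes it called 1183, against 5684 with all libraries. Without SO-L1 replicate 1 or 3 or without replicate 3 of both groups 1 or 2 of the list were called. KCTD1 (0.0521), KCTD15 (0.0601) and LDB1 (0.0846) were lost when SO-L1 replicate 1 was left out. With all libraries DESeq2 and limma-voom each called 3 higher and 1 lower, and the replicate block 5 and 1.

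Genes of epithelial junctions, polarity and ion transport had 4 higher and 4 lower of 18 tested (median 0.02). The sodium pump subunit gene ATP1B1, which serves blastocoel formation, averaged 74.5 ± 13.2 CPM in ASO-L1 and 49.1 ± 5.63 CPM in SO-L1 (0.60 ± 0.13), and the polarity gene PARD6B changed by 0.50 ± 0.11. CDH1, E-cadherin, fell to 238 ± 28.9 CPM in ASO-L1, against 327 ± 18.7 CPM in SO-L1 (-0.46 ± 0.09), and the epithelial factor gene GRHL2 changed by -0.65 ± 0.12. Without replicate 1 of both groups edgeR called none of the list, with 5 higher and 3 lower at an unadjusted p under 0.05. That fit called 1183 genes over all tested genes, against 5684 with all libraries. With all libraries DESeq2 called 4 higher and 4 lower, and limma-voom 5 and 4.

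**Figure D4:**
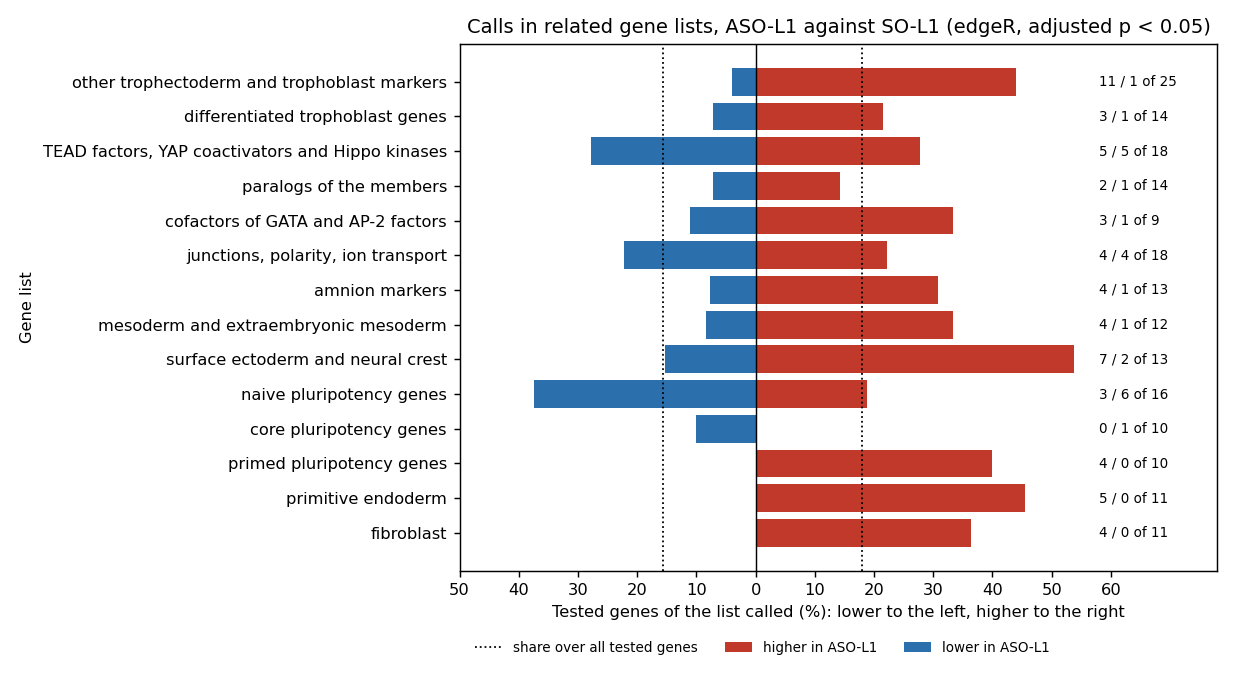
Share of tested genes called higher (right, red) or lower (left, blue) in ASO-L1 for each gene list, with the numbers higher, lower and tested; dotted lines mark the shares over all tested genes, 18.0% higher and 15.7% lower. The other trophectoderm and trophoblast markers have 11 higher and 1 lower of 25, and lists of other cell types have higher calls as well.

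Several of the 9 genes are not specific to trophectoderm, and lists for other cell types moved in the same libraries. Surface ectoderm and neural crest genes had 7 higher and 2 lower of 13 tested (median 1.31), and 3 of the 19 genes of that list are also on the trophectoderm list. By edgeR the list had 4 higher and 2 lower when SO-L1 replicate 3 was left out, and 5 and 1 when number 1 was left out of both groups. Their summed level was 67.2 to 116 CPM in ASO-L1 and 56.6 to 65.7 CPM in SO-L1 libraries. KRT17, a keratin gene of stratified epithelia (3.36 ± 0.26), and the homeobox gene DLX5 (4.29 ± 0.70) rose, and GRHL3 fell (-0.68 ± 0.09). DLX5, also counted on the trophectoderm list, had 3, 7 and 5 reads in SO-L1 libraries, all under the filter's minimum of 0.364 CPM. It passed the filter through its ASO-L1 libraries alone. KRT17 was under that minimum in SO-L1 replicate 1 (0.32 CPM). Amnion markers had 4 higher and 1 lower of 13 (median 0.43; summed 110 to 153 CPM in ASO-L1 and 85.0 to 108 CPM in SO-L1). Among them TNC rose by 1.65 ± 0.18, HEY1 by 2.59 ± 0.46 and WNT6 by 1.01 ± 0.27, and IGFBP5 changed by -0.95 ± 0.21. The defining amnion gene ISL1, named after its values were seen, measured 0.867, 2.11 and 1.27 CPM in ASO-L1 and 0.928, 0.692 and 0.913 CPM in SO-L1 libraries (adjusted p = 0.123 by edgeR).

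Mesoderm genes had 4 higher and 1 lower of 12 (median 0.29; summed 374 to 497 CPM in ASO-L1 and 187 to 232 CPM in SO-L1), with TWIST1 (2.47 ± 0.49), SNAI2 (2.19 ± 0.41) and VIM (1.24 ± 0.13) higher and BMP4 (-0.39 ± 0.08) lower. VIM alone made up most of the sum, at 282 to 360 CPM in ASO-L1 and 114 to 151 CPM in SO-L1 libraries. The early mesoderm genes TBXT (0.38, adjusted p = 0.197), MIXL1 (0.25, 0.139), EOMES (-0.07, 0.927) and TBX6 (0.32, 0.272), named after their values were seen, were not called by edgeR. Primitive endoderm genes had 5 higher of 11 (median 0.47; summed 204 to 253 CPM in ASO-L1 and 159 to 171 CPM in SO-L1), with CER1 (2.29 ± 0.42), SOX17 (2.10 ± 0.54), BMP2 (1.14 ± 0.23) and AFP (0.98 ± 0.24). The other 6, named after their values were seen, were not called by edgeR. They were GATA4 (-0.15, adjusted p = 0.739), PDGFRA (-0.37, 0.14), FOXA2 (0.47, 0.36), COL4A1 (-0.05, 0.609), NID2 (0.22, 0.347) and LAMA1 (-0.15, 0.202). SOX17 had 3, 7 and 5 reads in SO-L1 libraries, all under the filter's minimum of 0.364 CPM, and passed the filter through its ASO-L1 libraries alone. Fibroblast genes had 4 higher of 11 (median 0.35; summed 667 to 772 CPM in ASO-L1 and 555 to 624 CPM in SO-L1), with TAGLN (1.32 ± 0.15), PDGFRB (0.78 ± 0.25), THY1 (0.51 ± 0.09) and COL1A1 (0.23 ± 0.06). FAP, a fibroblast gene, was at 0 reads in all 6 libraries. With no filter HEY1 (adjusted p = 0.0515) and TWIST1 (0.0591) did not pass edgeR. Of these genes PDGFRB was called in none of the 9 fits with libraries left out except without ASO-L1 replicate 3, and not by DESeq2 (0.0537). When SO-L1 replicate 1 was left out, WNT6 (0.0628), SOX17 (0.0737) and COL1A1 (0.0821) were no longer called by edgeR. When SO-L1 replicate 3 was left out, the same 3 genes (0.0761, 0.0579 and 0.0649) and TWIST1 (0.0537) were not. Without SO-L1 replicate 3 the calls numbered 3 for the amnion, mesoderm and primitive endoderm lists and 2 for fibroblast, and without SO-L1 replicate 1 they numbered 3 for amnion and 2 for fibroblast. Without number 1 of both groups the amnion, mesoderm, primitive endoderm and fibroblast lists had 2, 3, 3 and 2 calls, and without number 3 of both 3, 3, 3 and 2. TWIST1 (0.13), BMP4 (0.0924), CER1 (0.0843) and AFP (0.084) were among those lost without number 3 of both by edgeR. The part of other cell types in the changes of CDX2 and TFAP2A was not tested.

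Naive pluripotency genes had 3 higher and 6 lower of 16 tested (median -0.50), with FGF4 (-1.06 ± 0.16), DPPA3 (-0.88 ± 0.16), SUSD2 (-0.52 ± 0.10) and DNMT3L (-0.47 ± 0.09) lower. The 3 higher, named after their values were seen, were TFCP2L1 (0.47 ± 0.09, adjusted p = 0.00511 by edgeR), KLF4 (0.72 ± 0.21, 0.0353) and TBX3 (2.39 ± 0.66, 0.043). Core pluripotency genes had 1 lower of 10 (median -0.16), PRDM14 (-0.39 ± 0.08), while NANOG (-0.28 ± 0.10, adjusted p = 0.0553 by edgeR), TDGF1 (-0.22 ± 0.09, 0.0851) and UTF1 (-0.21 ± 0.09, 0.0982) did not pass. With the replicate block, and also without replicate 2 of both groups, 6 of the 10 core genes were called lower, with no filter 4, and by DESeq2, with upper quartile factors or without ASO-L1 replicate 1 there were 2. Primed pluripotency genes had 4 higher of 10 (median 0.26), SFRP2 (0.69 ± 0.16), DUSP6 (2.25 ± 0.50), THY1 and SOX11 (0.46 ± 0.10). DUSP6 was under the filter's minimum of 0.364 CPM in SO-L1 replicates 1 and 3 (0.288 and 0.196 CPM). When replicate 1 was left out of both groups the naive, core and primed lists had 3, 0 and 1 calls by edgeR, and without SO-L1 replicate 3 the naive list had 5. In that fit without replicate 1 PRDM14 did not pass (0.0762), and 2 core genes were lower at an unadjusted p under 0.05. In the primed, primitive endoderm and fibroblast lists no gene was called lower, and in the core list none higher, by edgeR on group alone, DESeq2 or limma-voom on all 6 libraries, with 0 at an unadjusted p under 0.05 in each. The replicate block called 1 primed gene lower, and with no filter 1 was lower at an unadjusted p under 0.05.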

How the data were processed

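Poly(A) RNA-seq of H9 cells was deposited as raw counts per gene symbol, with duplicates removed per the file name. Per the submitters' processing notes the tools were TopHat2 2.0.13, featureCounts, Subread 1.5.0 and Trim Galore 0.4.0 and the build hg19, with no roles named. Annotation, strand setting and treatment of multi-mapping reads are not given there. The kit was directional. Where counting ignored strand, GATA3 reads cannot be told apart from those of GATA3-AS1, which had 0 to 2 reads per library. The same limit holds for TFAP2A with TFAP2A-AS1 and TFAP2A-AS2, GATA2 with GATA2-AS1 and ENPEP with AC098798.1. These opposite-strand genes were not listed among the counts under these symbols, so their reads are not known. The authors also deposited log2 normalised, batch-corrected values, and a comparison table with log2 fold changes, p-values, a t score and a log-odds score per the file headers; its model is not stated.

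Counts were tested with edgeR 4.0.16 (R 4.3.3): filterByExpr (minimum count 10, minimum total 15), TMM, robust quasi-likelihood test on group alone, two-sided, Benjamini-Hochberg over 16873 genes, called at 0.05. SE is the unshrunken log2 fold change over the square root of F. With 3 libraries a group, exact permutation gives no two-sided p under 0.1, so none is printed. The fit was also run on simulated data with the same spread for all genes. That run does not bear on genes as variable as CDX2 and TFAP2A, whose coefficients of variation in ASO-L1 were 71.4% and 57.7%. Log2 CPM used a prior count of 2. Alternatives were RLE and upper quartile factors, DESeq2 1.42.0, limma-voom (limma 3.58.1), other filters, a replicate block and libraries left out.

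Members and lists were chosen with earlier results of these data known. Named were all members, up to 4 tested genes with the smallest p per list and the 5 genes closest to CDX2; exceptions are marked, and a gene that this rule names is not reported here. Deviations from group means correlated at 0.102, 0.377 and 0.211 for libraries numbered 1, 2 and 3 in both groups. These were taken as pairs only in the replicate block and where a number was left out of both groups. The main test on group alone does not use the pairing. That pairing is not certain, since ASO-L1 3 also correlated with SO-L1 1 (0.156) and ASO-L1 1 with SO-L1 3 (0.162). TBXT was matched under its older symbol.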

Additional observations from a re-analysis of the deposited data

How the results depend on the processing

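The number of trophectoderm genes called was 2 of 8 with all libraries and stayed between 2 and 3 with RLE or upper quartile factors, DESeq2, limma-voom, no filter or the replicate block (3). A filter of CPM above 1 in 3 libraries gave 1, since CDX2 and GATA3 then failed it. Leaving out 1 library gave 0 (without SO-L1 replicate 3) to 3 calls, with 1 without ASO-L1 replicate 2 or SO-L1 replicate 1. Leaving out 1 replicate number in both groups gave 0, 2 and 1 calls for numbers 1, 2 and 3. Where edgeR called 0, the unadjusted p was under 0.05 for 2 genes in both cases. Over all genes 5684 were called, with 2975 to 5322 when 1 library was left out and 1183 to 7197 when a number was left out of both groups: 3166 without SO-L1 replicate 1, 2975 without SO-L1 replicate 3, and 1183, 7197 and 2820 without number 1, 2 and 3 of both groups. The replicate block gave 7719. Among the members the block changed the call of GATA3 alone. None of the 8 log2 fold changes changed sign under any alternative. CDX2 ranged from 1.5 to 2.84 (adjusted p = 4.02e-09 to 0.057), TFAP2A from 0.74 to 1.55 (4.02e-05 to 0.103) and GATA3 from 0.43 to 1.49 (0.00145 to 0.362), all by models fitted across all genes (edgeR, DESeq2 or limma). For each of these genes the lowest adjusted p came from the edgeR fit with no filter, where the SE was smaller than in the main fit. HAND1 ranged from 0.05 to 0.73, GATA2 from 0.02 to 0.41, ABCG2 from 0.01 to 0.28, ENPEP from -0.73 to -0.08 and TFAP2C from -0.08 to -0.01, with no call. The cause of these differences was not tested. At 7 to 75 reads per library for CDX2 and 2 to 5 for VGLL1, depth limits what these values can show.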
